A study of Mus with 6 samples.

Results

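Rab GTPases are small membrane-bound switches that direct vesicle traffic, and this report describes their genes in endothelial cells of the injured mouse heart. All genes whose symbol is Rab followed by a number, with or without a letter and a further digit, were taken from the deposited expression table, which gave 56 of its 20893 genes. The libraries were made from cardiac microvascular endothelial cells that were taken with magnetic beads as CD45-negative and CD31-positive. There were 3 libraries from wild-type (WT) mice and 3 from Ccl28 knockout (KO) mice, numbered 2, 3 and 4 in each group, and the left coronary artery had been ligated in all mice. The sources used here give no strain, age, sex, time after ligation, number of animals per library or cell type in which Ccl28 was deleted. In KO replicates 3 and 4 the genotype label reads Ccl29 and Ccl30 where that of KO replicate 2 reads Ccl28, and the titles were followed here. Whether each library is a separate animal is not given in the sources used here, and the p-values below cover only variation among these libraries, which may be technical.

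A Rab protein is active when it holds GTP, in which form it recruits effectors that move, tether or fuse a vesicle, and inactive when it holds GDP. Exchange factors switch it on, GTPase-activating proteins switch it off, prenyl groups added by Rab geranylgeranyl transferase anchor it in membranes, and GDP dissociation inhibitors (GDI) carry it through the cytosol. Each Rab marks a compartment: Rab5 proteins early endosomes, Rab4 and Rab11 proteins the fast and slow routes back to the surface, Rab7 late endosomes, and Rab27a and Rab3 proteins secretory vesicles. In endothelial cells these routes return receptors and adhesion proteins to the surface, and Weibel-Palade bodies, the stores of von Willebrand factor, carry Rab27a and Rab3d.

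Gene levels are in FPKM, that is, fragments counted relative to transcript length and to the size of the library, and are given as mean ± SD with n = 3 per genotype. A log2 fold change is the KO mean minus the WT mean of log2(FPKM + 1), and the added 1 shrinks changes of weakly expressed genes. A gene was called when its adjusted p in limma was under 0.05 over the 10806 genes that reached 1 FPKM in 3 or more libraries. Of the 56 Rab genes, 39 passed that filter, and these 39 had at least 1 FPKM in all 6 libraries. The other 17 were low, with at most 187 reads in any library, and 15 of them stayed under 1 FPKM throughout. Between 36004457 and 40500067 reads per library were assigned to genes, of which a tested Rab gene had 166 to 19357.

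Ccl28 was at 0.0926, 0.0659 and 0.143 FPKM in WT replicates 2, 3 and 4 and was listed at 0 in each KO library. These values were under the filter and near the floor, since 1 read per kb of transcript equalled 0.0247 to 0.0278 FPKM. The endothelial marker Pecam1 stood at 705 ± 35.9 FPKM in WT and 611 ± 45.1 in KO, and the leukocyte gene Ptprc between 0.871 and 1.71 in WT libraries and between 1.01 and 1.41 in KO libraries. The summed FPKM of 8 pan-endothelial markers was 3135 to 3166 in WT and 2543 to 2918 in KO. Of these 8 markers 4 were called lower and 1 higher. Markers of other cells differed as well, where 18.3% of all tested genes were called higher and 25.8% lower. Of the tested markers 6 of 9 for macrophages, 3 of 3 for neutrophils, 3 of 3 for lymphocytes and 8 of 9 for platelets and erythroid cells rose, while 6 of 8 for mural cells and 5 of 6 for fibroblasts fell. Of 6 tested cardiomyocyte markers 1 rose and 1 fell. With a transcript length trend, described below, removed from each library, 9.26% of all tested genes were called higher and 9.42% lower. On that scale 3 of 8 pan-endothelial, 5 of 8 mural and 4 of 6 fibroblast markers were lower. Those called higher were 1 of 9 macrophage, 2 of 9 platelet and erythroid, 3 of 3 neutrophil, 3 of 3 lymphocyte and 1 of 6 cardiomyocyte markers. Summed FPKM ran from 92.2 to 228 in WT and 226 to 348 in KO for 10 macrophage markers, from 14.8 to 19.2 and 35.3 to 56.3 for 6 neutrophil markers, and from 8.14 to 10.4 and 17 to 26.5 for 7 lymphocyte markers. The sums were 297 to 399 and 488 to 636 for 9 platelet and erythroid markers, 442 to 577 and 337 to 525 for 8 mural markers, 23.3 to 26.8 and 12.9 to 14.9 for 7 fibroblast markers, and 127 to 184 and 168 to 200 for 8 cardiomyocyte markers. No marker of these lists was at 0 in all 6 libraries. The part of these cells in the Rab results was not tested, and in bulk libraries fewer cells of a type and less RNA per cell cannot be told apart.

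Rab4a, which serves the fast recycling route from early endosomes to the plasma membrane, showed the largest log2 fold change of the 39 tested Rab genes. Its gene (ID 19341) lies on chromosome 8 from 123805846 to 123835291 (GRCm38). Rab4a was at 4.18, 3.79 and 4.02 FPKM in WT replicates 2, 3 and 4 and at 8.95, 9.17 and 10.9 FPKM in KO replicates 2, 3 and 4. These values rested on 265, 232 and 248 reads in WT and 529, 533 and 612 reads in KO. Every KO library was above every WT library, and the lowest KO value exceeded the highest WT value by more than the spread within either group. The mean rose from 4 ± 0.196 to 9.66 ± 1.05 FPKM, 2.42-fold, with a log2 fold change of 1.09 (SE 0.10, limma adjusted p = 0.000253). Only 26 of the 10806 tested genes had a larger log2 fold change. In the authors' deposited table, the log2 fold change of Rab4a was 1.33 with q = 5.22e-14. Rab4a was singled out with earlier results of these data known, so its p-value is not independent evidence. A long non-coding RNA gene, Gm51601, lies inside the Rab4a gene in the RefSeq annotation, and whether reads were counted by strand is not given in the sources used here.

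**Figure D1:**
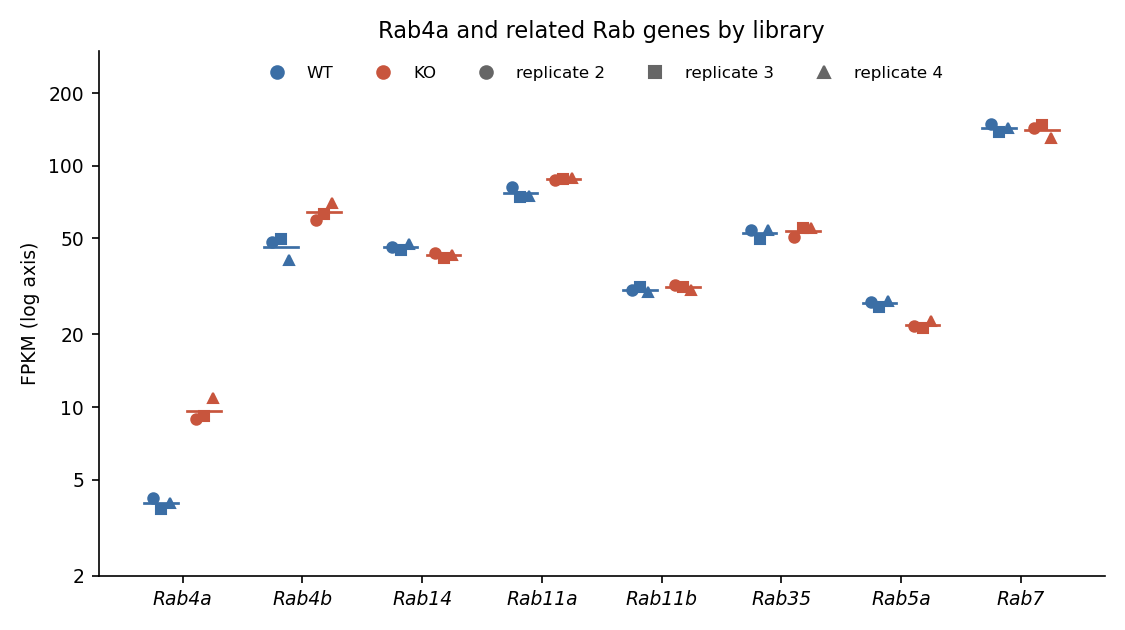
FPKM (log axis) of Rab4a, its paralog Rab4b and 6 further endosomal Rab genes in each library; blue points are WT, red points KO, symbols give the replicate number and bars the group mean. Rab4a is the lowest of the 8 genes in both genotypes, and its 3 KO points, at 8.95 to 10.9 FPKM, stand apart from its 3 WT points at 3.79 to 4.18.

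Rab4b, the paralog of Rab4a on chromosome 7 (27168433 to 27178883, GRCm38), was the more abundant of the pair and also rose. It was at 48.2, 49.8 and 40.9 FPKM in WT replicates 2, 3 and 4 and at 59.4, 63 and 70.2 FPKM in KO replicates 2, 3 and 4, so the groups did not overlap. The log2 fold change of Rab4b was 0.47 (SE 0.09, limma adjusted p = 0.00364). Rab4b did not pass with the length trend removed (log2 fold change 0.11, limma adjusted p = 0.358). Without both libraries numbered 4 it did not pass either (limma adjusted p = 0.0559). Rab4a made up 7.99%, 7.08% and 8.96% of the summed Rab4a and Rab4b FPKM in WT replicates 2, 3 and 4, and 13.1%, 12.7% and 13.4% in KO. The pair together went from 50.3 ± 4.69 to 73.8 ± 6.52 FPKM, and most of that sum was Rab4b in every library.

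The change of Rab4a was set against 7 relatives by taking, in each library, its log2(FPKM + 1) minus that of the relative. Against Rab4b this difference was -3.24 in WT and -2.61 in KO, a shift of 0.62. Against Rab14, a Rab of the Golgi and recycling endosome, it went from -3.24 to -2.04. The shift was 0.90 against Rab11a and 1.06 against Rab11b, both of the slow recycling route, and 1.06 against Rab35, which acts in fast recycling. Against Rab5a of early endosomes it was 1.37, and against Rab7 of late endosomes 1.12. For each relative the KO libraries lay above the WT libraries without overlap, and p was 0.1 in each two-sided exact permutation test. A design of 3 against 3 libraries cannot give a smaller p, and adjustment over the 7 comparisons left 0.1. The 7 comparisons share the same Rab4a values, and Rab4a was singled out with earlier results known, so they are not separate evidence.

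Across the family 10 of 39 tested Rab genes rose (25.6%) and 6 fell (15.4%), against a background of 18.3% of all tested genes called higher and 25.8% called lower (44.2% in either direction). With quantile normalization 8 Rab genes were higher and 8 lower, where 2207 of all 10806 tested genes were higher and 2359 lower. With both libraries numbered 4 left out, which leaves 2 against 2, Rab4a alone was called higher and Rab6b alone lower. In that setting 744 of 10468 tested genes were higher and 1105 lower. The median log2 fold change was -0.02 for the Rab genes and -0.03 for all tested genes. The genes that rose were Rab4a, Rab13, Rab4b, Rab24, Rab9, Rab8a, Rab29, Rab5c, Rab1b and Rab11a, and those that fell were Rab8b, Rab6b, Rab6a, Rab10, Rab33b and Rab5a. Apart from Rab4a, the called changes ran from -0.61 for Rab8b to 0.52 for Rab13. The FPKM of WT and KO did not overlap for 24 of the 39 genes, where the background was 54.7% of all tested genes. In the authors' deposited table, 10 of the 56 Rab genes were higher and 5 lower at q under 0.05, and 13.6% and 15.7% of its 17686 genes were.

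Levels differed widely within the family. Averaged over the 6 libraries, Rab5c had the highest level (215 FPKM), followed by Rab1b (143), Rab7 (142), Rab11a (82.6) and Rab1a (78.6), and these 5 genes made up 47.5% of the summed FPKM of the family. Rab1b and Rab7 were too close to be ordered, since Rab1b was the lower of the pair in every WT library and the higher in every KO library. The family sum was 1291 to 1400 FPKM in WT and 1424 to 1467 in KO, so the groups did not overlap. Rab4a, at 4 FPKM in WT, was among the low members that passed the filter, and Rab4b was 11.6 ± 1.48 times as abundant in WT and 6.65 ± 0.21 times in KO.

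**Figure D2:**
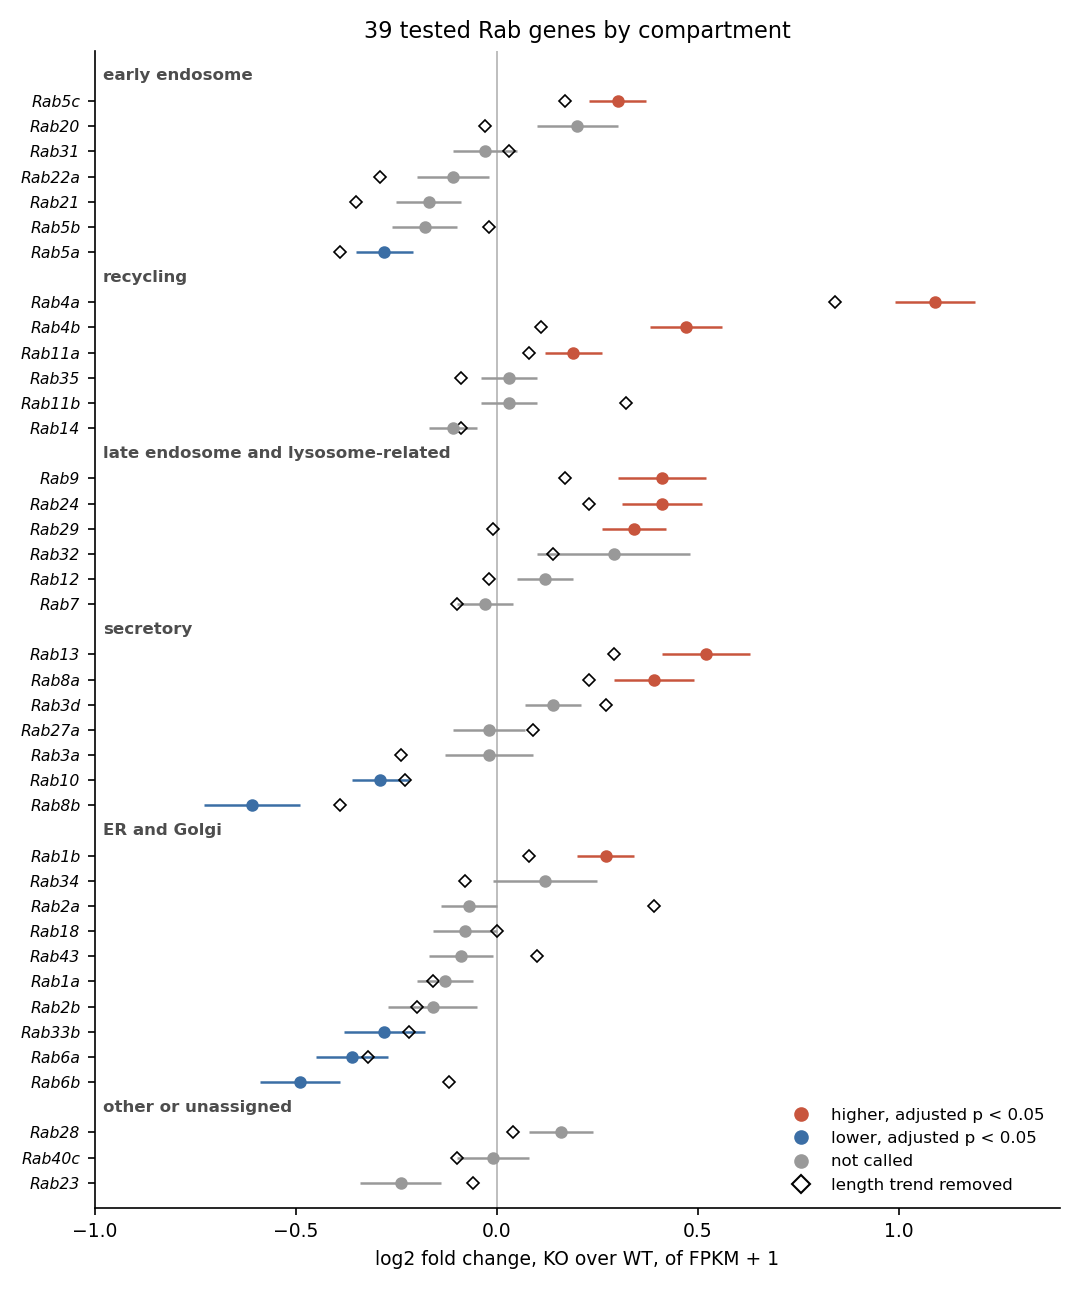
Log2 fold change (KO over WT, of FPKM + 1) of the 39 tested Rab genes, grouped by compartment; circles with bars give the estimate ± SE, coloured by call, and open diamonds the estimate after removal of the length trend. Rab4a stands alone at 1.09, and the other Rab genes lie between -0.61 for Rab8b and 0.52 for Rab13.

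Early endosomes are the first station of internalised cargo. Rab5c was the most abundant Rab gene of these cells, with 15.5% of the summed Rab FPKM, and it was at 202, 188 and 188 FPKM in WT and 232, 231 and 251 in KO. It rose 1.24-fold (log2 fold change 0.30, limma adjusted p = 0.00698), and quantile normalization took its adjusted p to 0.1. Its paralog Rab5a moved the other way, from 27.1, 26.1 and 27.4 FPKM in WT replicates 2, 3 and 4 to 21.7, 21.3 and 22.8 in KO (log2 fold change -0.28, limma adjusted p = 0.00843). Rab5a and Rab5c therefore had non-overlapping groups in opposite directions. Rab5b (29.5 ± 1.07 and 26 ± 2.01 FPKM), Rab21, which carries integrins into endosomes (25.4 ± 2.1 and 22.5 ± 0.0411), Rab22a (18.9 ± 2.25 and 17.3 ± 0.617), Rab31 and Rab20 did not pass the test. Rab5b was called lower in 2 of the other settings, where KO replicate 2 was left out (adjusted p = 0.0493) or values were quantile normalized (0.0446), and the latter also called Rab20 higher (0.0193). The Rab5 genes summed to 249 ± 9.22 FPKM in WT and 286 ± 11.5 in KO, and the Rab5c share of that sum went from 77.3% ± 0.392 to 83.2% ± 0.869.

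Recycling Rabs return cargo to the surface. Of 6 tested genes 3 rose, where 18.3% of all tested genes did: Rab4a and Rab4b, described above, and Rab11a, which was at 82, 74.5 and 74.9 FPKM in WT and 87, 88.5 and 88.6 in KO (log2 fold change 0.19, limma adjusted p = 0.0423). Rab11a no longer passed when KO replicate 2, 3 or 4 (adjusted p = 0.0887, 0.0945 and 0.0943) or WT replicate 3 or 4 (0.11 and 0.158) was dropped, and its adjusted p was 0.311 after removal of the length trend and 0.345 with quantile normalization. Rab11b (30.7 ± 0.778 and 31.4 ± 0.818 FPKM), Rab35 (52.6 ± 2.69 and 53.7 ± 2.52) and Rab14 (46.1 ± 1.4 and 42.6 ± 0.956) did not pass, although Rab14 was called lower with quantile normalization (adjusted p = 0.0381). The epithelial Rab25, with 0 to 16 reads per library, and Rab15, with 1 to 17 reads, were too low to test. The summed level of the 8 recycling genes was 252 to 265 FPKM in WT and 282 to 298 in KO. In the annotation that came with the expression table, the term recycling endosome was attached to 6 of these 8 genes and to 11 of all 56.

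Late endosomal and lysosome-related Rabs included Rab7, which drives the step to the lysosome and was one of the most abundant Rab genes. Rab7 was at 149, 138 and 144 FPKM in WT replicates 2, 3 and 4 and at 143, 148 and 130 in KO, so the groups overlapped (log2 fold change -0.03, limma adjusted p = 0.75). Of the 6 tested genes 3 rose, where 18.3% of all tested genes did, and these 3 calls did not hold with the length trend removed, as given below. The 3 were Rab24, linked to autophagy (14.8 ± 0.656 to 20.1 ± 2.78 FPKM, limma adjusted p = 0.00842), Rab29, linked to lysosomes and the Golgi (16.2 ± 1.03 to 20.8 ± 1.66, adjusted p = 0.00964), and Rab9, which serves return from late endosomes to the Golgi (10.9 ± 1.92 to 14.8 ± 0.928, adjusted p = 0.016). Rab9 missed the threshold when WT replicate 4 was dropped (adjusted p = 0.0549) or when no expression filter was used (0.0749). Rab12 (50.3 ± 3 and 54.7 ± 1.58 FPKM) and Rab32, a Rab of lysosome-related organelles (3.63 ± 1.37 and 4.49 ± 0.32), did not pass. Rab12 was called higher with median-ratio scaling (adjusted p = 0.043). Rab7b, a Rab of macrophages and dendritic cells among others, had 48 to 187 reads per library and Rab38, a Rab of pigment granules, had 10 reads in WT replicate 4 and 0 in the other 5 libraries.

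Secretory Rabs gave changes in both directions, and the Rab8 paralogs moved apart. Rab8a, which delivers Golgi vesicles to the surface and to cilia, was at 59, 47.3 and 56.8 FPKM in WT replicates 2, 3 and 4 and at 71.4, 66.1 and 77.3 in KO (log2 fold change 0.39, limma adjusted p = 0.00905). Rab8b was at 9.07, 7.1 and 9.34 FPKM in WT and 5.69, 5.65 and 4.38 in KO (log2 fold change -0.61, SE 0.12, limma adjusted p = 0.00402), the largest fall of the family. The share of Rab8b in the pair went from 13.5% ± 0.554 to 6.87% ± 1.33. Rab13, known for traffic to tight junctions, rose 1.45-fold, from 24.8, 20.1 and 18.1 FPKM in WT to 29.8, 28.5 and 32.9 in KO (adjusted p = 0.00483 in limma). Rab10, which acts in delivery to the plasma membrane, fell from 42.2 ± 1.48 to 34.3 ± 1.83 FPKM (limma adjusted p = 0.00823), and its gene overlaps Rab10os, a non-coding gene at 9.28 FPKM in WT and 8.85 in KO. Of the 2 Rabs named above for Weibel-Palade bodies, Rab27a was at 5.12 ± 0.458 and 5.02 ± 0.133 FPKM (log2 fold change -0.02, SE 0.09) and did not pass. Rab3d, at 16.4 ± 0.646 and 18.1 ± 0.668 FPKM (log2 fold change 0.14, SE 0.07), did not pass here. With the length trend removed Rab3d was called higher (limma adjusted p = 0.0304). Rab3a, best known from synaptic vesicles, was detected at 12.3 ± 0.875 and 12.2 ± 1.76 FPKM and did not pass either. Rab3b, Rab26, Rab27b, Rab37 and Rab44 were under the filter, with 4 to 94 reads per library.

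Rabs of the endoplasmic reticulum and Golgi held 24.3% ± 0.184 of the summed Rab FPKM in WT and 22.8% ± 0.15 in KO, without overlap between the groups, and the early endosomal share of 23.4% ± 0.159 and 24% ± 0.356 did not overlap either. Rab1b, which acts in transport from the endoplasmic reticulum to the Golgi, was at 132, 127 and 129 FPKM in WT and 156, 149 and 164 in KO (log2 fold change 0.27, limma adjusted p = 0.00958, and 0.133 with quantile normalization). Rab1a, of the same step, was at 82.3 ± 2.43 and 74.9 ± 2.8 FPKM and did not pass (log2 fold change -0.13, limma adjusted p = 0.124, and 0.0108 with quantile normalization). Rab6a, which serves transport within and from the Golgi, fell from 45.9 ± 3.99 to 35.6 ± 3.55 FPKM (limma adjusted p = 0.0119), and the adjusted p was 0.0541 without an expression filter. Its gene overlaps Mrpl48, which was at 9.7 FPKM in WT and 12.6 in KO. Rab6b was at 5.61, 5.15 and 4.63 FPKM in WT and 3.4, 3.17 and 3.47 in KO (log2 fold change -0.49, limma adjusted p = 0.003), so both Rab6 genes fell. Rab33b, a Golgi Rab linked to autophagy, fell from 5.86 ± 0.534 to 4.63 ± 0.351 FPKM (limma adjusted p = 0.0365). Rab33b missed the threshold when KO replicate 2 or 3 (adjusted p = 0.106 and 0.0966) or WT replicate 2 or 4 (0.104 and 0.121) was dropped, with quantile normalization (0.157), when no filter was used (0.0836) and with the length trend removed (0.0997). Rab2a, Rab2b, Rab18, Rab34 and Rab43 did not pass, with log2 fold changes of -0.16 to 0.12. Rab19, Rab30, Rab33a, Rab36, Rab39 and Rab39b were under the filter. Among the unassigned genes Rab28 (20.7 ± 1.2 and 23.2 ± 1.46 FPKM), Rab40c, linked to ubiquitin ligases, and Rab23, linked to hedgehog signalling, did not pass. Rab28 was called with median-ratio scaling (adjusted p = 0.0466) and Rab23 without WT replicate 3 (adjusted p = 0.0399). Rab40b and Rab42 were not tested.

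**Figure D3:**
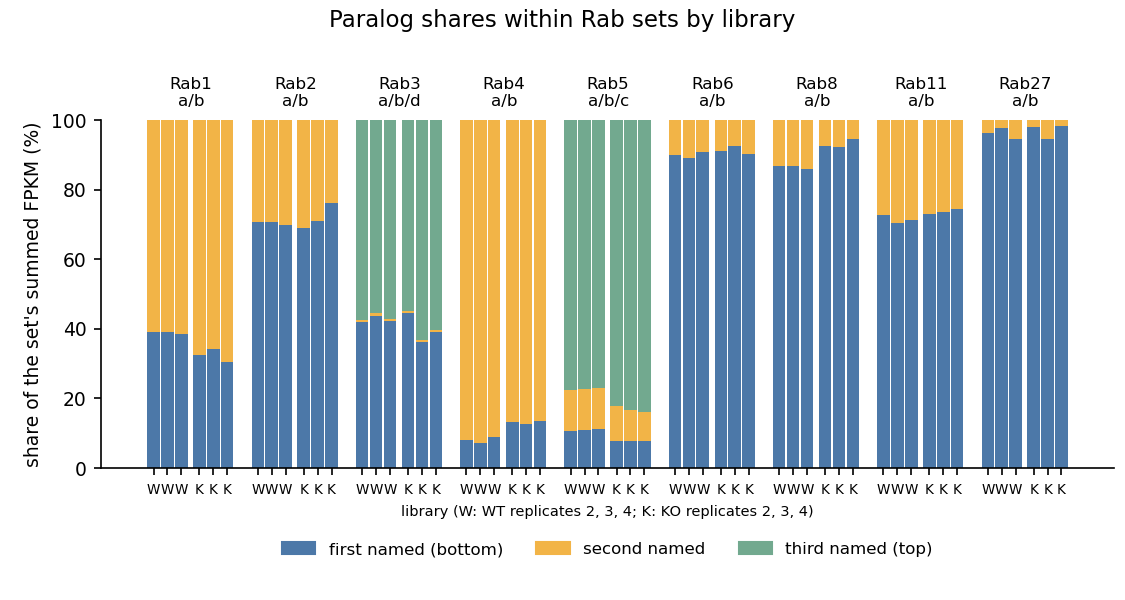
Share of each paralog in the summed FPKM of its Rab set (%), with a stacked bar per library; W marks WT and K marks KO, and colours follow the order of the letters above each set. Rab4a, Rab1b, Rab5c and Rab8a take a larger share in all 3 KO libraries than in any WT library, as with 13.1% ± 0.357 against 8.01% ± 0.937 for Rab4a.

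Paralog shares, put together after the values had been seen, describe the makeup of each Rab set. Rab1b went from 61.1% ± 0.412 to 67.6% ± 1.88 of the Rab1 pair, whose sum was 211 ± 4.68 FPKM in WT and 231 ± 4.82 in KO. Rab11a went from 71.5% ± 1.27 to 73.7% ± 0.676 of the Rab11 pair, also without overlap. In the Rab2, Rab6 and Rab27 pairs, and for Rab3a and Rab3d, the shares of WT and KO overlapped. In the Rab1, Rab5, Rab8 and Rab11 sets the paralog that gained share had the shortest transcript, with 1835 nt for Rab1b, 2143 nt for Rab5c, 2012 nt for Rab8a and 2333 nt for Rab11a. Rab4a gained share with a transcript of 1564 nt against 1170 nt for Rab4b. Rab3b, under the filter for testing, went from 0.586% ± 0.0254 to 0.725% ± 0.115 of the Rab3 set without overlap. These Rab3b shares rested on few reads, 25, 27 and 23 in WT and 38, 28 and 26 in KO, which overlapped. Its transcript had 3723 nt against 1678 nt for Rab3a and 4241 nt for Rab3d.

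Transcript length moved with the sign of the fold change in the Rab genes as in the whole table. These lengths are the ones implied by the deposited FPKM and read numbers for each gene, and they were not compared with the transcripts in use. The 10 Rab genes that rose had implied lengths of 1170 to 2333 nt, and the 6 that fell had 2364 to 8269 nt. Longer genes had lower fold changes, with a rank correlation (Spearman's rho) of -0.70 over the 39 Rab genes and -0.72 over the 10806 tested genes, given as a description because genes share the same 6 libraries. The median length was 2364 nt for the tested Rab genes and 3429 nt for all tested genes. What the length trend contributes to the Rab calls cannot be told apart from genotype, since it separates the same libraries.

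**Figure D4:**
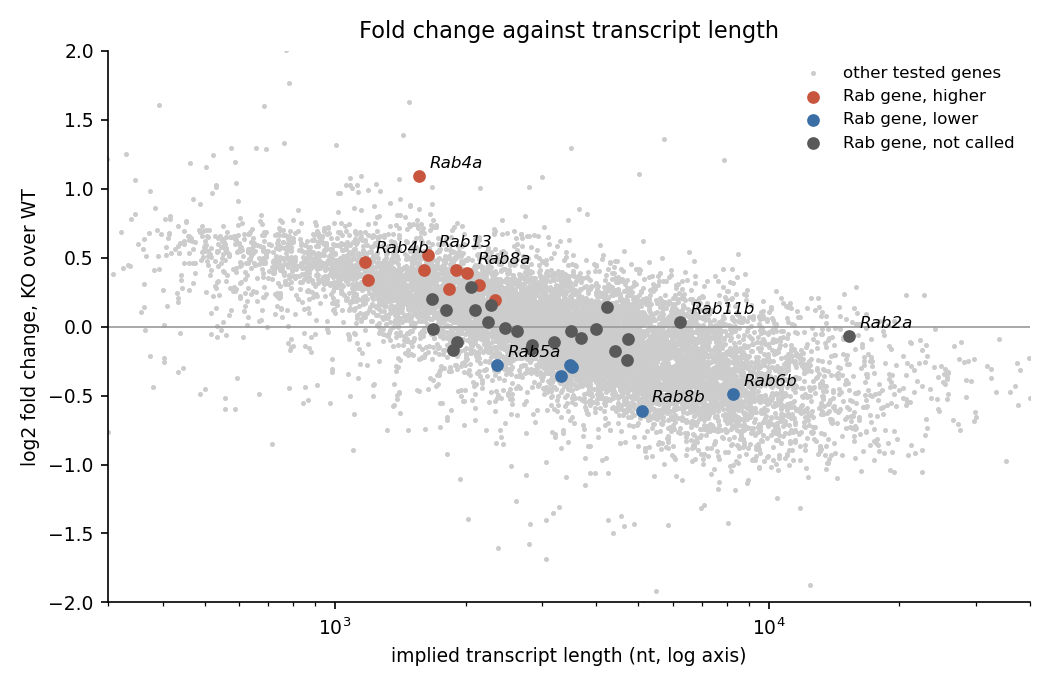
Log2 fold change (KO over WT) against implied transcript length (nt, log axis) for the tested genes, with Rab genes coloured by call; 23 of the 10806 genes lie outside the axes. Most Rab genes lie within the grey band that falls from short to long transcripts, and Rab4a, at 1564 nt and 1.09, lies above it.

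After a length trend was subtracted from each library, Rab4a rose with a log2 fold change of 0.84 (limma adjusted p = 0.00113), and 22 of the 10806 genes had a larger one. On that scale 4 Rab genes rose (10.3%) and 6 fell (15.4%), with a background of 9.26% higher and 9.42% lower (18.7% in either direction). Of the 16 calls made before the removal, 5 held with the same sign: Rab4a higher, and Rab5a (-0.39), Rab8b (-0.39), Rab6a (-0.32) and Rab10 (-0.23) lower. The other 11 did not pass: Rab11a and Rab33b, given above, and Rab4b (0.11, adjusted p = 0.358), Rab5c (0.17, adjusted p = 0.062), Rab13 (0.29, adjusted p = 0.0636), Rab8a (0.23, adjusted p = 0.0672), Rab24 (0.23, adjusted p = 0.118), Rab9 (0.17, adjusted p = 0.29), Rab1b (0.08, adjusted p = 0.33), Rab6b (-0.12, adjusted p = 0.429) and Rab29 (-0.01, adjusted p = 0.963). With the replicate number also fitted as a block, Rab8b, Rab6a and Rab10 no longer passed on this scale (limma adjusted p = 0.0911, 0.0828 and 0.0982). Rab5a still passed there (0.0344). The sign of the log2 fold change differed between the scales for 10 of the 39 Rab genes, of which Rab29 was called before the removal and Rab2a after it. A further 5 genes passed only after the removal, Rab11b (0.32), Rab2a (0.39) and Rab3d (0.27) as higher and Rab21 (-0.35) and Rab22a (-0.29) as lower. Rab2a stood at -0.07 before it and had the longest implied length of the 39 genes, 15329 nt. Its call after the removal depends on that length, which was not compared with the transcripts in use. The early endosomal group then had 3 genes that fell, Rab5a, Rab21 and Rab22a, of 7 tested. The shift of Rab4a against Rab4b was 0.72 on this scale and it was 0.52 against Rab11b, 0.75 against Rab11a, 0.93 each against Rab14, Rab35 and Rab7, and larger still against Rab5a, with no overlap between the groups and exact permutation p = 0.1 for each.

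Genes that act on Rabs were mostly called lower where they were called, and their transcripts had a median implied length of 5344 nt. Of 146 regulators and effectors listed, 145 were in the table and 119 were tested, of which 8 rose (6.72%) and 48 fell (40.3%), where 18.3% of all tested genes rose and 25.8% fell. Their median log2 fold change was -0.18. After removal of the length trend 9 rose (7.56%) and 4 fell (3.36%), where 9.26% and 9.42% of all tested genes did, and the median was 0.02. The difference between this list and the Rab genes was not tested.

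Of 8 tested genes for the membrane anchoring of Rabs, 1 rose (12.5%) and 2 fell (25%), where 18.3% and 25.8% of all tested genes did. With the length trend removed 0 genes of this list rose and 1 fell (12.5%), where 9.26% and 9.42% of all tested genes did. The gene that fell there was Rabggtb (limma adjusted p = 0.0176), named after its values were seen. Rabac1, which encodes a prenylated Rab acceptor, rose from 207 ± 16.5 to 284 ± 16.7 FPKM (limma adjusted p = 0.00205, and 0.829 after the length trend was taken out). Chm and Chml, the genes of the Rab escort proteins that present new Rabs for prenylation, fell from 3.89 ± 0.356 to 2.53 ± 0.118 and from 3.71 ± 0.517 to 2.13 ± 0.431 FPKM (limma adjusted p = 0.00402 and 0.00535; with the trend removed 0.0576 and 0.0808). Rabggta, a subunit of the geranylgeranyl transferase, was at 9.16 ± 1.44 and 11.3 ± 0.903 FPKM and did not pass (adjusted p = 0.0591 in limma).

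Of 30 tested exchange factor genes 13 fell (43.3%) and 2 rose (6.67%), where 25.8% of all tested genes fell and 18.3% rose. The 2 that rose were Ccz1, a subunit of an activator of Rab7, and Rab3il1, which acts on Rab3a and Rab8 proteins. Both were named after their values were seen. With the length trend removed 2 exchange factor genes fell (6.67%) and 4 rose (13.3%), where 9.42% and 9.26% of all tested genes did. Dennd5b was at 6.93, 5.44 and 6.91 FPKM in WT replicates 2, 3 and 4 and at 3.24, 3.05 and 2.35 in KO, without overlap. It fell from a mean of 6.43 ± 0.851 to 2.88 ± 0.466 FPKM (log2 fold change -0.94, limma adjusted p = 0.000624) and still passed after the trend was taken out (log2 fold change -0.53, adjusted p = 0.011). Dennd4c (3.2 ± 0.325 to 1.85 ± 0.121 FPKM), Ric1, part of an activator of Rab6 (12.8 ± 1.07 to 9.16 ± 0.259), and Dennd4a (1.59 ± 0.21 to 0.78 ± 0.111, past the filter through WT alone) fell and did not pass with the trend removed. Of 31 tested GTPase-activating protein genes 10 fell (32.3%) and 2 rose (6.45%), where 25.8% and 18.3% of all tested genes did. The 2 that rose were Tbc1d7 and Tbc1d10a, named after their values were seen. With the length trend removed 0 genes of this list fell and 1 rose (3.23%). Before the removal, those of the list with the smallest p were Tbc1d2b (15.5 ± 0.909 to 11.1 ± 0.888 FPKM), Tbc1d9 (4.96 ± 0.677 to 3.11 ± 0.349), Tbc1d16 (4.93 ± 0.512 to 3.27 ± 0.356) and Evi5 (1.92 ± 0.118 to 1.21 ± 0.0638). None of these 4 passed with the trend removed in limma, where Evi5 had a log2 fold change of 0.06.

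Of 28 tested endosomal effector genes 11 fell (39.3%) and 1 rose (3.57%), where 25.8% and 18.3% of all tested genes did. With the length trend removed 1 gene of this list fell (3.57%) and 3 rose (10.7%), where 9.42% and 9.26% of all tested genes did. Eea1, the tether that Rab5 recruits to early endosomes, was at 5.11, 4.29 and 5.18 FPKM in WT replicates 2, 3 and 4 and at 2.44, 2.38 and 1.88 in KO, so that every KO library was below every WT library. The mean of Eea1 fell from 4.86 ± 0.494 to 2.23 ± 0.303 FPKM (log2 fold change -0.86, limma adjusted p = 0.000592), and it also passed after the trend was taken out (log2 fold change -0.49, adjusted p = 0.00931). Rabep1, an effector of Rab4 and Rab5 proteins (8.75 ± 0.152 to 6.29 ± 0.434 FPKM), Appl1, an effector of Rab5 (5.89 ± 0.66 to 3.84 ± 0.322), and Pik3r4, a partner of the lipid kinase Pik3c3 (10.2 ± 0.293 to 7.41 ± 0.76), fell and did not pass with the trend removed. The gene that rose before the removal was Pik3c3 itself (chosen once its values were known), from 3.21 ± 0.0232 to 4.14 ± 0.349 FPKM. Its limma adjusted p was 0.0294, and 0.00276 with the trend removed, at an implied length of 15890 nt. Of 22 tested secretory and Golgi effector genes 12 fell (54.5%) and 2 rose (9.09%), where 25.8% and 18.3% of all tested genes did. The 2 that rose were the exocyst gene Exoc7 and the Golgi gene Gorasp2, named after their values were seen. With the length trend removed 0 genes of this list fell and 1 rose (4.55%), where 9.42% and 9.26% of all tested genes did. Unc13b, a vesicle priming factor (5.36 ± 0.158 to 3.53 ± 0.315 FPKM), Bicd2, which links Rab6 vesicles to dynein (21.2 ± 1.54 to 14.3 ± 2.04), the exocyst gene Exoc2 (7.73 ± 0.492 to 5.28 ± 0.454) and Mical3, which binds Rab8 (2.98 ± 0.237 to 1.86 ± 0.0153), fell and did not pass with the trend removed.

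**Figure D5:**
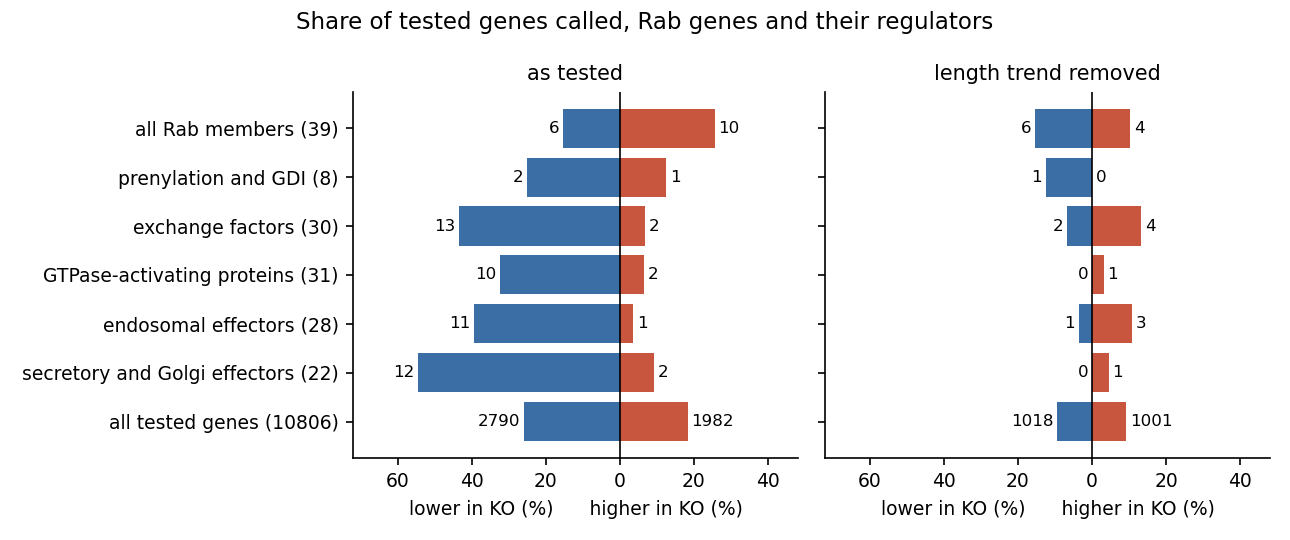
Share of tested genes called higher (red, to the right) and lower (blue, to the left) in KO, in percent, for the Rab genes, the lists of their regulators and effectors, and all tested genes; the number tested is in brackets and the number called stands at each bar. In the left panel 10 Rab genes are higher and 6 lower, and the right panel gives the counts after removal of the length trend, with 4 higher and 6 lower.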

How the data were processed

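The authors deposited an FPKM table of 6 mouse libraries. Their DESeq2 comparison holds, per the file headers, a mean normalized signal for each group, a ratio (fold change), a log2 value, a p-value and a q-value per gene. The submitters' processing notes name mm10, featureCounts 1.6.2, HISAT2 2.1.0 and other tools and give no roles. TRIzol extraction and a stranded TruSeq mRNA kit were used, per the labels' protocols. Ratios of FPKM to the authors' group means gave the whole reads behind 17686 genes (whole to within 0.05 for 100.0% of values of at most 1000 reads), the depth and an implied length per gene. Genotypes were compared with limma 3.58.1 (R 4.3.3, trend) on log2(FPKM + 1), with Benjamini-Hochberg adjustment over 10806 genes. The length trend was a lowess curve (span 0.3) per library. Rab4a was compared with 7 relatives by exact two-sided permutation. Named Rab genes were Rab4a and the 7 relatives, and per compartment the 5 with the smallest p and the most abundant one; per regulator list, the 4 with the smallest p. Further Rab genes are named because every member is accounted for. Alternatives were other scalings, filters and pseudocounts, a replicate block, each library left out, and limma-voom on the recovered reads. Members, lists and compartments were chosen with earlier results of these data known. The fits were tested on simulated data that held no length trend between the genotypes, so that test does not bear on the trend. All 56 genes matched RefSeq (GRCm38.p6) by gene ID. Shares, sums and permutations were computed in Python 3.11.15 with scipy 1.17.1.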

Additional observations from a re-analysis of the deposited data

How the results depend on the processing

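Rab4a was called higher under all 16 other settings, with log2 fold changes of 0.84 to 1.26 and adjusted p-values of 4.26e-05 to 0.0148 in limma. The filter at 5 FPKM is no support among them, since Rab4a passed it through the KO libraries alone. With each library left out in turn the log2 fold change of Rab4a was 1.01 to 1.14, and its shift against Rab4b was 0.54 to 0.71. In these settings 5 to 7 Rab genes were called lower and 8 to 10 higher. Among all tested genes 1878 to 2581 were lower there and 1397 to 1994 higher. With the length trend removed 4 Rab genes were called higher in place of 10, and 1001 of all tested genes in place of 1982. The deviations of same-numbered libraries from their group means showed no positive correlation (r = -0.19, -0.35 and -0.22 for numbers 2, 3 and 4). Differently numbered libraries gave r of 0.00 to 0.20, and the numbers were not taken to pair the samples. With the replicate number as a block, 9 Rab genes were higher and 5 lower, with 1542 higher and 2207 lower among 10806 tested genes. Rab11a (limma adjusted p = 0.116) and Rab33b (0.0691) were not called there. Rab4a had a log2 fold change of 1.09 with the block (limma adjusted p = 0.00394). Its shift against Rab4b was 0.62 (exact sign-flip permutation p = 0.25, the smallest that 3 pairs allow). The block with the length trend removed left 1 Rab gene higher, Rab4a, and 2 lower, Rab5a and Rab21. In that setting 309 of 10806 tested genes were higher and 407 lower. A setting chosen after seeing the data, without the libraries numbered 4, left 1 higher and 1 lower, with 744 higher and 1105 lower among 10468 tested genes. With quantile normalization 8 Rab genes were higher and 8 lower, with 2207 higher and 2359 lower among 10806 tested genes. Among the named genes called in the comparison as reported, log2 fold changes reversed for Rab29 (-0.01) and Evi5 (0.06) with the length trend removed, with and without the block. The cause of these changes was not tested. Where libraries were left out, their smaller number and the identity of those left out cannot be told apart. The 17 Rab genes under the filter, with at most 187 reads in any library, were tested only where no filter was used. The 9 higher and 4 lower Rab genes called there in limma were all among the other 39. Without a filter 1362 of 20893 genes were higher and 2279 lower.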
